A study of Mus musculus with 4 samples.

Results

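The genes described here are 40 genes of S phase and mitosis, chosen by name: 19 that serve DNA replication and 21 that serve mitosis. They were followed on 4 mouse arrays carrying 35699 gene names, of which 22751 were well above background on at least 1 array. Each gene was read from its brightest probe, and 36 of the 40 genes were well above background on at least 1 array. The brightness of a probe is its scanner signal, and a level is the log2 of that signal minus the array's 75th percentile over gene spots, so a level of 0 is the signal of the 75th percentile.

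The samples were retinal organoids, called 3D retinas, grown from induced pluripotent stem cells of the Nrl-GFP mouse, in which green fluorescent protein is driven by the promoter of the rod transcription factor gene Nrl. Organoids with bright fluorescence were picked by hand on differentiation day 23, treated, and collected on day 25. The vehicle group received ethanol. The other 3 groups received 5 µM 4-OHT, the usual abbreviation of 4-hydroxytamoxifen, alone, with 400 µM vitamin E or with 200 nM lutein. Each group was 1 pool of 24 organoids, from which 50 ng of RNA was labelled and hybridised to 1 array. No group has a replicate, so no difference below has a test, and a group cannot be told apart from its pool or its position on the slide. The labels name no group that received vitamin E or lutein without 4-OHT. The comparisons ask how the cell cycle genes of these retinas stood after 4-OHT, and how they stood when vitamin E or lutein was added.

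A dividing cell copies its DNA once in S phase and separates the copies in mitosis. The MCM proteins form the ring that unwinds DNA, and Cdc6 and Cdt1 load it; cyclins and their kinases start each step, and the anaphase-promoting complex ends mitosis by destroying mitotic cyclins. Replication genes are known as targets of the E2F factors, which the retinoblastoma family of proteins restrains, while many mitotic genes carry the CHR element and CCAAT boxes bound by the MuvB complexes and NF-Y. In the developing retina these genes are expressed by dividing progenitor cells, while rods and other neurons have left the cell cycle.

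Promoter windows are shown because they separate the 2 sets of genes by a feature that was not used to choose them. The windows ran from 250 bases before to 50 bases after the start site, as RefSeq gives them on build GRCm38.p6, and 32 of the 40 genes had one. On both strands, any of the E2F letters TTTGGCGC, TTTCCCGC, TTTGCCGC or TTTCGCGC was found in 6 of 15 replication genes and in 1 of 17 mitotic genes (5.88%), beside 2.6% of all 27025 genes with a window. The first and last of these letters overlap when they lie on opposite strands. The CHR letters TTTGAA were found in 12 of 17 mitotic genes (70.6%) and 2 of 15 replication genes (13.3%), beside 20.2% of all genes. The letters CCAAT were found in 15 of 17 mitotic genes (88.2%) and 10 of 15 replication genes (66.7%), beside 41.1% of all genes. All 12 mitotic genes with the CHR letters also held CCAAT, a pair that 7.97% of all genes held. The last 120 bases before the start are printed below for 6 genes, 5′ to 3′ on the gene's own strand, with the letters of these motifs in capitals. Mcm6 (chr1:128359706-128359825, minus strand) shows 3 E2F matches, 2 of them overlapping. Chaf1a (chr17:56040296-56040415, plus strand) is the replication gene with the lowest difference after 4-OHT, and its window held none of the E2F letters listed. Its stretch ttcccgccaaa, read on the other strand, departs from TTTGGCGC only in the last letter. Other forms of the E2F site were not searched, so the E2F counts hold for the listed letters alone. Cdk1 (chr10:69352913-69353032, minus strand) and Cdc20 (chr4:118437344-118437463, minus strand) show the CHR and CCAAT letters side by side. Ccnb2 (chr9:70421555-70421674, minus strand) and Mki67 (chr7:135716380-135716499, minus strand) are mitotic genes with 2 CHR matches in the whole window. Those of Ccnb2 lie outside the stretch printed.
Mcm6: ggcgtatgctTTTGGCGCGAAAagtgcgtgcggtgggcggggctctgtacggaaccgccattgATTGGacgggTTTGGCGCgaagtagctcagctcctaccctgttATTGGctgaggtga
Chaf1a: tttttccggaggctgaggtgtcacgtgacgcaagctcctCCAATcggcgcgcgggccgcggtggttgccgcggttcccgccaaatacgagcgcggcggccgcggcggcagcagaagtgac
Cdk1: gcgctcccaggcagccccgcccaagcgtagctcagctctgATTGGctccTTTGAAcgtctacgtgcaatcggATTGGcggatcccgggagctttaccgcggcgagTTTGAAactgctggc
Cdc20: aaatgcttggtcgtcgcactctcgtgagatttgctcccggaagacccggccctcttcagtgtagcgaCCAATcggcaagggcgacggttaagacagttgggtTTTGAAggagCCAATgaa
Ccnb2: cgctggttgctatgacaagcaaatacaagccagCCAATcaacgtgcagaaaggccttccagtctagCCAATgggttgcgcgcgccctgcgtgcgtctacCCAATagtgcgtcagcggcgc
Mki67: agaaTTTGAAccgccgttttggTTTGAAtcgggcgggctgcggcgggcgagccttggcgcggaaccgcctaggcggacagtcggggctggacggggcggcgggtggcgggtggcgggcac
A match is a description of letters and shows neither binding nor control.

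**Figure D1:**
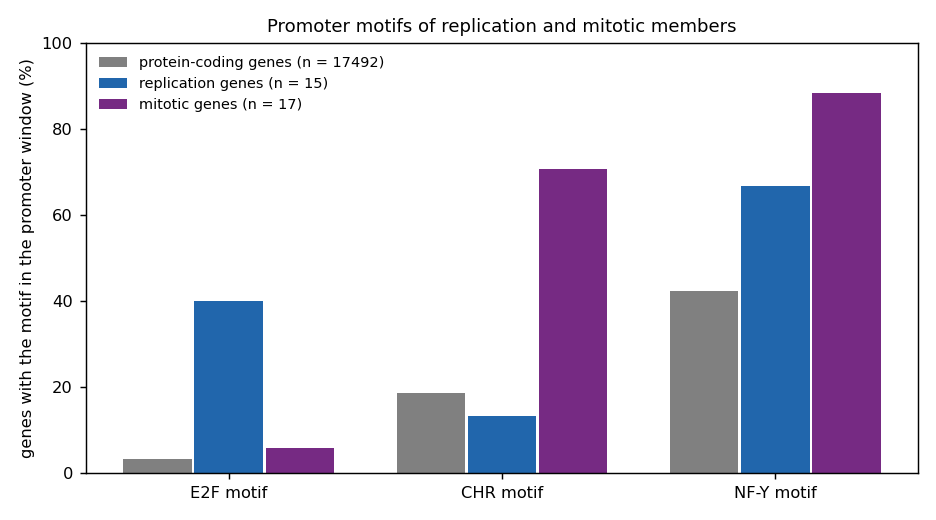
Share of genes (%, vertical axis) whose promoter window held an E2F, CHR or NF-Y (CCAAT) motif, for 17492 protein-coding genes (grey), 15 replication genes (blue) and 17 mitotic genes (purple). E2F letters were in 6 of 15 replication genes against 3.29% of protein-coding genes, and CHR letters in 70.6% of mitotic genes against 18.5%.

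The arrays were close in the share of spots detected. Of the 59305 gene spots, 54.5% were well above background with 4-OHT and 51.3% to 52.0% on the other arrays, and no spot was saturated. The 4-OHT array also had the lowest 75th percentile of signal, 497.8 against 544.0 to 564.7. RNA quality was not compared. The spread between the 10 spots of repeated probes gave a standard deviation (SD) of 0.148 to 0.155 for a log2 difference between arrays. It was 0.291 to 0.304 for levels under -2 and 0.079 to 0.0845 for levels of 0 and above. This is printing and scanning error, not the difference between pools. All 20 retinal progenitor markers and all 10 rod markers were well above background on every array. The summed signal of the rod markers, in units of the 75th percentile, was 1167 with vehicle, 540.2 with 4-OHT, 919.8 with vitamin E added and 692.4 with lutein added. In pooled tissue, fewer cells of a type and less RNA per cell cannot be told apart. Of the progenitor markers the sum was 456.5, 394.1, 502.1 and 451.4 in the same order. Of 7 microglial markers, 2 or 3 were well above background on each array, with sums of 2.68, 3.61, 2.33 and 3.02. Csf1r and Cd68 were well above background on all 4 arrays, Cd68 at 2.38 above vehicle after 4-OHT, while Aif1, Cx3cr1, P2ry12 and Ptprc were so on none. Of 7 pluripotent stem cell markers, 5 were well above background on each array, with sums of 16.9, 7.54, 8.20 and 6.17. Among them Esrrb stood at -3.20 and Tdgf1 at 1.87 against vehicle after 4-OHT, while Pou5f1 and Zfp42 were well above background on none. Esrrb stood at -1.37 with vitamin E added and -2.29 with lutein added, the order of the rod sums over the treated arrays. The sum of these markers is therefore not read as an amount of stem cells. The part of these cell types in the differences below was not tested.

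Not one cell cycle gene differed by 2-fold between the 4-OHT and the vehicle array. Among the 35 genes that could be compared, 0 passed the limit in either direction, while 7.75% of the 22030 genes measured were at least 2-fold higher and 3.15% at least 2-fold lower, 10.9% in all. With a limit of 1.5-fold, 2 of 35 were higher (Ccnb2 and Bub1b) and 0 lower, beside 15.2% and 13.5% of all genes. The differences of the 35 genes ranged from -0.50 for Chaf1a to 0.86 for Ccnb2 on the log2 scale. Small differences were common: 8 genes were higher and 9 lower by more than 2 spot SDs at their level, shares close to or below the 23.8% and 33.7% of all genes that passed that limit.

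Within this narrow range the 2 sets lay apart. The median difference after 4-OHT was -0.12 for the 17 replication genes, 12 of them below 0, and 0.089 for the 18 mitotic genes, 13 of them above 0. The mitotic median stood 0.21 above the replication median. The median over all genes was -0.065, with 45.1% of them above 0. Over protein-coding genes it was -0.13, so the replication genes sat at the level of protein-coding genes in general. When arrays were scaled to the spike-in controls instead, the median of all genes moved to -0.32, the replication median to -0.37 and the mitotic median to -0.16. With quantile normalization the mitotic median was 0.031, with 11 of 18 genes above 0. The mitotic genes therefore read above vehicle on the 75th percentile scale and below it on the spike-in scale. The distance between the sets was 0.16 to 0.21 under all 10 settings, but this range is narrow partly by construction. A scaling that shifts all genes of an array by the same amount, as with the spike-in controls, cannot move that distance. It moved only with quantile normalization, to 0.16, and with normexp background correction or without a detection filter, to 0.20 in both.

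**Figure D2:**
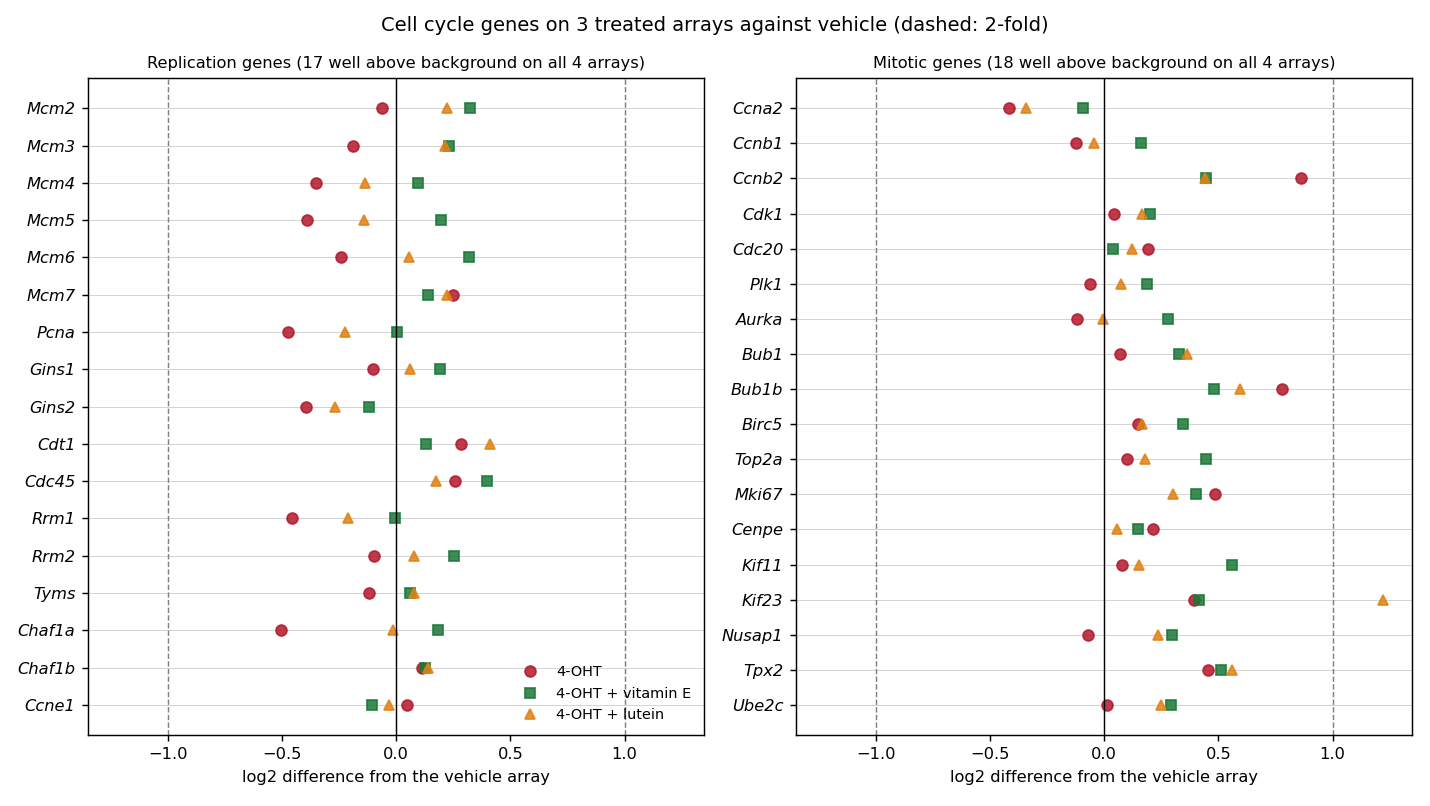
Log2 difference from the vehicle array (horizontal axis) for the 17 replication genes and 18 mitotic genes well above background on all 4 arrays, with 4-OHT (circles), vitamin E added (squares) and lutein added (triangles), 1 array each; dashed lines mark 2-fold. With 4-OHT 12 of 17 replication genes lie below 0 and 13 of 18 mitotic genes above it on this scale, a mitotic direction that turns with spike-in scaling. Of all genes measured, 45.1% lie above 0 with 4-OHT. Kif23 with lutein is the only point past 2-fold.

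Among the replication genes the helicase came first. Of the ring itself, Mcm5 (probe at chr8:77651350-77651410 on mm9) read 0.39 with vehicle, -0.0040 with 4-OHT, 0.58 with vitamin E added and 0.24 with lutein added. Mcm4 read 1.61, 1.26, 1.71 and 1.47 in the same order, and Mcm6 2.79, 2.55, 3.11 and 2.85. For all 3 the 4-OHT array was lowest and the vitamin E array highest. Mcm5 was 1.31-fold lower with 4-OHT than with vehicle, and with vitamin E added it stood 0.59 on the log2 scale above 4-OHT alone. Mcm2 and Mcm3 had the same order of lowest and highest array, with differences of -0.061 and -0.19 after 4-OHT. Both Mcm3 probes were below vehicle, at -0.19 and -0.068. Mcm7 ran the other way, at 2.80, 3.05, 2.94 and 3.02, but its probe is placed by the array file on chromosome 16, not on the gene's own chromosome. Cdt1, which helps to load the ring, also read higher after 4-OHT, by 0.28, and highest with lutein. Cdc6, the other loader, was not well above background on any array.

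Of the genes that switch the helicase on, Gins1 and Gins2, subunits of the GINS complex, differed by -0.10 and -0.40 after 4-OHT. Cdc45, their partner in the active helicase, differed by 0.26, at levels between -3.40 and -3.00 where the spot SD of a difference is 0.299.

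The lowest difference after 4-OHT belonged to Chaf1a, the large subunit of the factor that places histones on new DNA (probe at chr17:56206969-56207028 on mm9). It read -0.43 with vehicle, -0.93 with 4-OHT, -0.24 with vitamin E added and -0.44 with lutein added. The 4-OHT array stood alone, 1.42-fold below vehicle, and the lutein array was within 0.016 of vehicle. Chaf1b, the partner subunit, differed by 0.11 after 4-OHT and by 0.14 on its other probe. Pcna, the sliding clamp of the polymerases, read 4.03, 3.55, 4.03 and 3.80, so the 4-OHT array was 1.39-fold below vehicle and the vitamin E array level with it. Its probe lies on chromosome 19 in the array file, another chromosome than the gene's.

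The 3 genes of nucleotide supply were all below vehicle after 4-OHT. Rrm1, the large subunit of ribonucleotide reductase (probe at chr7:109617223-109617283 on mm9), read 2.03, 1.57, 2.02 and 1.82, lowest with 4-OHT. Rrm2, the small subunit, differed by -0.096 and Tyms, thymidylate synthase, by -0.12. The Rrm2 probe too is placed on another chromosome than its gene. Ccne1, the E cyclin that brings cells into S phase, differed by 0.047, and Ccne2 was not well above background on any array.

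Of the mitotic cyclins, Ccnb2 had the largest difference of the 35 genes compared after 4-OHT (probe at chr9:70255671-70255730 on mm9). It read 0.58 with vehicle, 1.44 with 4-OHT, 1.03 with vitamin E added and 1.02 with lutein added. Vehicle was lowest, 4-OHT 1.82-fold above it, and both supplemented arrays lay between. Its sister Ccnb1, which drives entry into mitosis with Cdk1, read 0.50, 0.38, 0.66 and 0.45, and its 3 probes gave -0.12, -0.65 and 0.089 after 4-OHT, so they disagree in sign. Ccna2, the A cyclin of S and G2 phase, read 1.08, 0.66, 0.99 and 0.74. It was the mitotic gene with the lowest difference after 4-OHT, -0.42. Cdk1 itself differed by 0.042. Cdc25c, the phosphatase that activates it, was well above background only on the vitamin E and lutein arrays, so its distance above vehicle is a bound, of at least 0.29 on the log2 scale with vitamin E and at least 0.58 with lutein.

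Among the kinases and the spindle checkpoint, Bub1b, the checkpoint protein BubR1, read -1.81 with vehicle, -1.03 with 4-OHT, -1.33 with vitamin E added and -1.21 with lutein added (probe at chr2:118466830-118466889 on mm9). All 3 treated arrays were above vehicle, by 0.78, 0.48 and 0.59. Bub1, Plk1 and Aurka differed by 0.070, -0.061 and -0.12 after 4-OHT. Birc5, survivin of the chromosomal passenger complex, differed by 0.15 and its other 2 probes by 0.069 and 0.56. Aurkb, the kinase of that complex, was not well above background on any array.

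Of the chromosome, kinetochore and spindle genes, Mki67, the proliferation antigen Ki-67 (probe at chr7:142881591-142881650 on mm9), read 1.15, 1.63, 1.55 and 1.44. Vehicle was lowest, and its second probe gave differences from vehicle of 0.31, 0.41 and 0.32 with vehicle lowest as well. Tpx2, a spindle assembly factor, read -1.07, -0.62, -0.56 and -0.51. Its second probe, near background, differed by -0.080 after 4-OHT against 0.45 for the bright one. Kif23, a motor of the midzone needed for cytokinesis, read -2.99, -2.60, -2.58 and -1.77, with the lutein array apart from the rest. Its probe has no position in the array file, and its second probe was not well above background on any array. Top2a, topoisomerase II, differed by 0.099 after 4-OHT, Cenpe by 0.21, Kif11 by 0.078 and Nusap1 by -0.073. Cenpf was not well above background on any array. Of the genes that end mitosis, Cdc20 differed by 0.19 and Ube2c by 0.012, with 0.11 on its second probe.

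**Figure D3:**
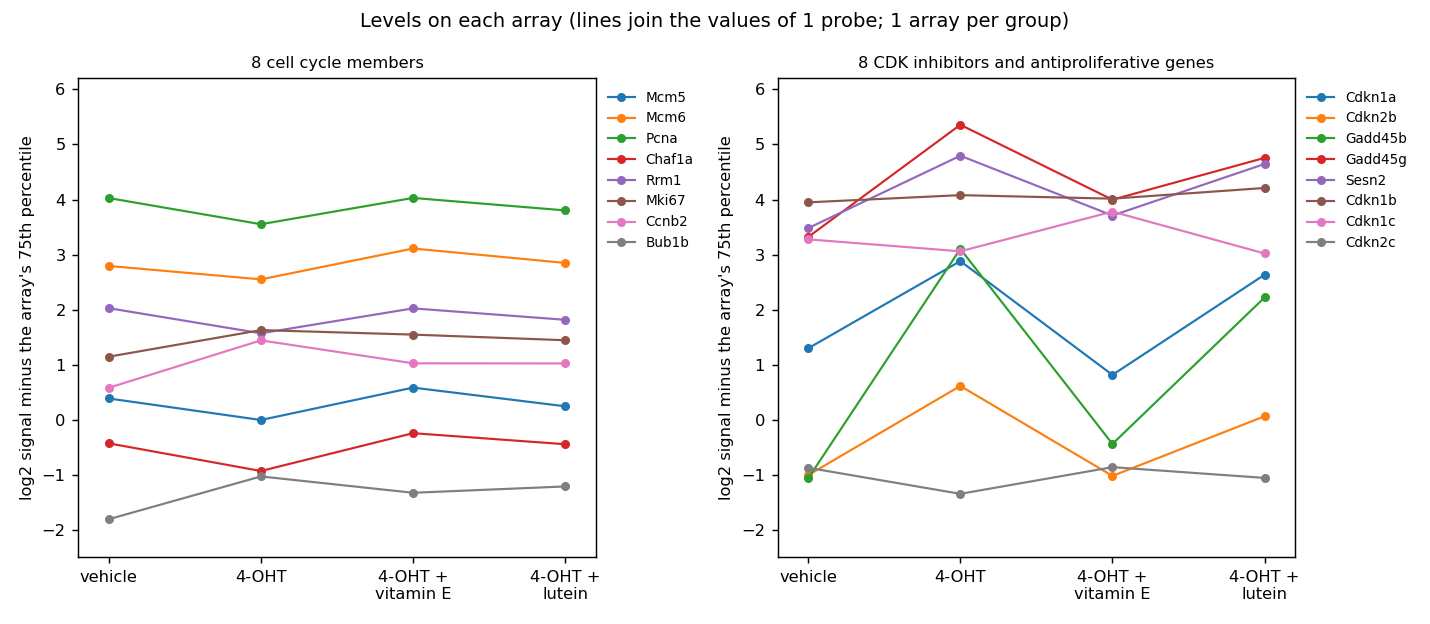
Level on each array (log2 signal minus the array's 75th percentile, vertical axis) for 8 cell cycle genes (left) and 8 inhibitors of cyclin-dependent kinases and antiproliferative genes (right). Lines join values of 1 probe, and each group is 1 array. Mcm5, Mcm6, Pcna, Chaf1a and Rrm1 are lowest with 4-OHT and Ccnb2, Bub1b and Mki67 highest, all within 2-fold of vehicle. Gadd45b is 4.17 above vehicle with 4-OHT. The genes on the left were picked and all go with the median of their set. Not shown are 5 of 17 replication and 5 of 18 mitotic genes that went the other way, such as Mcm7 (0.25), Cdt1 (0.28) and Ccna2 (-0.42). The second Mki67 probe was highest with vitamin E (1.29, against 1.19 with 4-OHT).

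The supplemented arrays were set against 4-OHT alone, which both comparisons share. With vitamin E added, 0 of 36 genes were past 2-fold, where 10.3% of the 22101 genes measured were, 1.48% higher and 8.81% lower. Cdc25c, the gene that makes the number 36, entered only through arrays where it was bright, so its sign was given by the filter. Except where it is named, it is left out of the counts and medians of mitotic genes from here on. The replication median was 0.35, with 14 of 17 genes above 0, and the mitotic median 0.22, with 13 of 18 above 0. With Cdc25c kept, normexp background correction moved the mitotic median from 0.23 to 0.11. On the same 19 genes, its distance below the replication median widened from -0.12 to -0.20. The median of all genes was 0.082, with 57.0% of them above 0, and of protein-coding genes 0.17. At 1.5-fold, 2 genes were higher, Chaf1a by 0.69 and Mcm5 by 0.59, and 0 lower, beside 8.56% and 15.6% of all genes. By more than 2 spot SDs, 9 of 17 replication genes and 8 mitotic genes were higher, where 34.7% of all genes were, and Ccnb2 alone was lower, at -0.42, where 23.2% of all genes were.

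With lutein added, 0 of 36 genes were past 2-fold against 4-OHT, where 5.02% of 21805 genes were, 1.16% higher and 3.86% lower. The replication median was 0.20, with 14 of 17 genes above 0, and the mitotic median 0.077, with 13 of 18 above 0. All genes had a median of 0.085, with 61.5% of them above 0, and protein-coding genes one of 0.13. At 1.5-fold, Kif23 alone was higher, by 0.83, and 0 genes lower, where 3.87% and 9.2% of all genes were. By more than 2 spot SDs, 9 replication genes and 2 mitotic genes (Kif23 and Ube2c) were higher, where 28.5% of all genes were, and Ccnb2 and Mki67 lower, where 14.6% were. The second Mki67 probe gave 0.018 against -0.18 for the bright one, so that direction rests on 1 probe. The 9 replication genes were Mcm2 to Mcm6, Pcna, Rrm1, Rrm2 and Chaf1a, which were also the 9 past that limit with vitamin E, though both comparisons share the 4-OHT array.

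Against vehicle, which the next comparisons share with the first, most genes of both sets lay above 0 with vitamin E. None of 36 passed 2-fold, where 3.08% of 21240 genes did, 1.09% higher and 1.99% lower. None passed 1.5-fold either, where 4.42% of all genes were higher and 6.65% lower. Over the 18 mitotic genes well above background on both arrays the median was 0.31, with 17 above 0, all but Ccna2 at -0.092. The replication median was 0.14, with 14 of 17 above 0, all but Gins2, Rrm1 and Ccne1. All genes had a median of -0.015, with 47.4% of them above 0, and protein-coding genes one of 0.0077. Past 2 spot SDs, 14 of 36 genes were higher and 0 lower, where 15.2% and 18.3% of all genes were. The highest of the 14 was Tpx2 at 0.51, but its second probe, dim on the vitamin E array, gave a bound of -0.71 there, so the probes disagree in sign. Kif11, a motor that pushes spindle poles apart, read 0.56 above vehicle, which at its low level is within 2 spot SDs.

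With lutein against vehicle, 1 of 36 genes passed 2-fold, where 4.94% of 21301 genes did, 3.44% higher and 1.5% lower. It was Kif23, at 1.22. At 1.5-fold 2 genes were higher, Kif23 and Bub1b at 0.59, and 0 lower, beside 9.21% and 5.82% of all genes. The mitotic median was 0.17, with 15 of 18 genes above 0, and the replication median 0.060, with 10 of 17 above 0. The median was -0.014 for all genes, with 48.4% of them above 0, and -0.022 for protein-coding genes. The lowest genes were Ccna2 at -0.34 and Gins2 at -0.27. Past 2 spot SDs, 12 genes were higher and 3 lower (Pcna, Rrm1 and Ccna2), where 20.9% and 22.8% of all genes were. The 12 include Cdc25c, a bound whose sign was given by the filter.

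By the order of the 4 arrays, 12 of 17 replication genes were lowest with 4-OHT, against 5 of 18 mitotic genes. The vitamin E array was above the lutein array for 12 of 17 replication genes and 13 of 18 mitotic genes. The shares of all genes with these orders were not counted. The promoter letters were also set beside the values. Of the genes with CHR letters, measured or not, 12 are mitotic and 2 are replication genes, so this split largely repeats that of the sets. The 13 measured genes with CHR letters had a median of 0.099 after 4-OHT, with 10 above 0, and the 17 without had one of -0.096, with 7 above 0. With vitamin E against vehicle the medians were 0.40 and 0.16, and all 13 genes with CHR letters were above 0. Against 4-OHT the genes with CHR letters had the lower medians, 0.16 against 0.29 with vitamin E and 0.078 against 0.20 with lutein. The 6 measured genes with E2F letters, 3 of them above 0, had a median of -0.075 after 4-OHT against 0.059 for the 24 without.

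Other genes of the same processes were counted to see how far the pattern went. Of 47 other replication genes measured, 11 were above vehicle after 4-OHT, where 45.1% of all genes were, with a median of -0.24. The 2-fold limit was passed upward by 2 and downward by 1, shares below the 7.75% and 3.15% of all genes. The highest was Dbf4, the activating subunit of the Cdc7 kinase, at 1.09, and the lowest Rpa3, a subunit of the single-strand binding protein RPA, at -1.05. Of 55 other mitotic genes, 21 were above vehicle, with a median of -0.033, so the excess above 0 among the 18 mitotic genes was not found in the longer list. The order of the medians was the same, with -0.033 for the other mitotic genes above -0.24 for the other replication genes. The highest other mitotic gene was Ndc80 of the kinetochore. It read -2.88 with vehicle, -1.01 with 4-OHT, -3.15 with vitamin E added and -2.21 with lutein added. The lowest was Cenpm at -1.09. With vitamin E added to 4-OHT the medians of these lists were 0.31 and 0.26, and with lutein 0.20 and 0.15. With vitamin E against vehicle, 38 of 56 other mitotic genes were above 0, with a median of 0.11. Of the other replication genes 28 of 48 were, with a median of 0.045, where 47.4% of all genes were above 0. Each list holds 2 bounds there. The excess above 0 was thus smaller among other mitotic genes than among the 18 mitotic genes.

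The 22 regulators of the E2F, RB and DREAM group measured had a median of -0.13 after 4-OHT. Of them, 1 was 2-fold higher and 0 lower, beside 7.75% and 3.15% of all genes. That gene was Mybl2, the B-Myb of the activating MuvB complex, which read 0.34 with vehicle, 1.45 with 4-OHT, 0.29 with vitamin E added and 0.66 with lutein added. The vitamin E array was within 0.047 of vehicle and the 4-OHT array apart from both. The lowest was E2f3 at -0.98. E2f1 differed by 0.26, Foxm1 by -0.060, Rb1 by -0.11, Rbl1 by -0.11 and Rbl2 by -0.36. E2f7, a repressor among the E2Fs, read -2.22, -2.14, -1.79 and -0.42, so lutein stood alone, 1.80 above vehicle.

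Of 11 G1 cyclins, kinases and Myc genes measured, Myc alone passed 2-fold after 4-OHT, at 2.24, beside 10.9% of all genes in either direction. The lowest was Ccnh at -0.71. Ccnd2 read -0.51, 0.29, -0.72 and 0.43, high with 4-OHT and with lutein and low with vehicle and vitamin E. Ccnd1, the main D cyclin of retinal progenitors, differed by -0.052 and Cdk4 by 0.36. Cdk6 was not well above background on any array.

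Larger differences were read for some brakes of the cycle. Among 19 inhibitors of cyclin-dependent kinases and antiproliferative genes, 5 passed 2-fold upward after 4-OHT and 0 downward, beside 7.75% and 3.15% of all genes, though the median was -0.13. They were Cdkn1a (p21), Cdkn2b (p15), Gadd45b, Gadd45g and Sesn2. Cdkn1a read 1.30 with vehicle, 2.88 with 4-OHT, 0.81 with vitamin E added and 2.64 with lutein added. Gadd45b, a stress-induced gene, read -1.06, 3.104, -0.44 and 2.22. In both, the 4-OHT and lutein arrays were high and the vehicle and vitamin E arrays low. Cdkn2b differed by 1.62, Gadd45g by 2.04 and Sesn2 by 1.32. Past 2 spot SDs, 6 of the 19 were higher and 8 lower, where 23.8% and 33.7% of all genes were. The lowest was Ccng2 at -0.69. With vitamin E against vehicle 0 of 19 passed 2-fold, where 3.08% of all genes did, and with lutein 5 did, where 4.94% of all genes did. Of the inhibitors within 2-fold, Cdkn1b (p27) differed by 0.13 after 4-OHT, Cdkn1c (p57) by -0.22 and Cdkn2c (p18) by -0.47.

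Among 20 retinal progenitor markers, 4 passed 2-fold upward after 4-OHT and 0 downward, beside 7.75% and 3.15% of all genes, with a median of 0.11. They were Hmga2 at 2.81, Nes at 1.61, Atoh7 at 1.14 and Notch1 at 1.07. The list split both ways, with 12 markers above 0 and 8 below, and the lowest was Sfrp2 at -0.73. Past 2 spot SDs, 8 markers were higher and 6 lower, where 23.8% and 33.7% of all genes were. Hes5, a Notch target, differed by -0.34 and Sox2, a factor of neural progenitors, by 0.73. Of 10 rod markers, 5 were at least 2-fold lower after 4-OHT, beside 3.15% of all genes, and the median of the 10 was -1.09. Whether these cells had a part in the differences of the cell cycle genes was not tested.

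**Figure D4:**
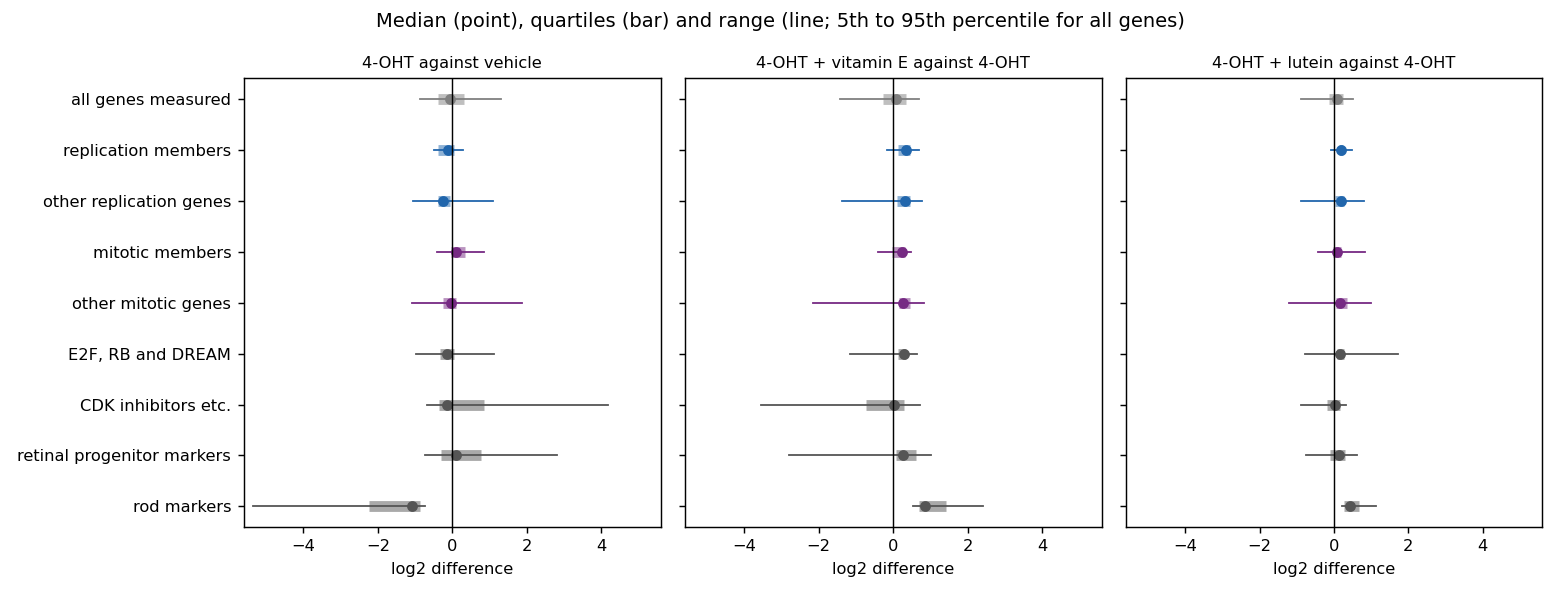
Log2 difference (horizontal axis) by gene list for 4-OHT against vehicle and for vitamin E or lutein added against 4-OHT alone, 1 array per group: points are medians, bars quartiles and lines the range (5th to 95th percentile for all genes). After 4-OHT the replication members have a median of -0.12 and the mitotic members one of 0.089 (-0.16 with spike-in scaling), inhibitors reach 4.17 and rods have a median of -1.09. Cdc25c is kept among the mitotic members where a supplement was added.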

How the data were processed

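The 4 arrays are 1-colour Agilent arrays of 55681 gene probes labelled with Cy3. The authors' scanner files were made, per the file headers, by Agilent's Feature Extraction software, version 10.7.3.1, and give a background-corrected intensity per spot on the linear scale with flags for outliers and for spots well above background. Probe positions are those of the mm9 annotation in the files. The authors' deposited value table holds a linear ratio per probe, which matched the signal of each array divided by a constant, and served as an alternative.

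From the intensity, control spots and flagged outliers were left out, spots of a probe averaged, log2 taken and the array's 75th percentile subtracted. The brightest probe stood for a gene. A gene entered a comparison if either array of the pair had it well above background, and a dim value was raised to the array's lowest well-above-background signal, which makes the difference a bound. With 1 array per group there is no test, and sizes are given against fixed limits of 2-fold and 1.5-fold and against the spread of 10-spot probes. The genes named are the 40 members, a fixed set of regulators, and the highest and lowest gene of each list; Cdkn2b, Gadd45g, Sesn2, Nes and Notch1 were added after their values were seen because they make up small counts, as were the microglial and stem cell markers. The members and lists were chosen with earlier results of these data known. Alternatives were 3 other scalings, normexp background correction (limma 3.58.1, R 4.3.3, offset 50), the deposited table, the mean of probes, 2 detection filters, dim values as measured and the 1.5-fold limit. Python 3.11.15, NumPy 2.4.6 and pandas 2.3.3 were used, and the calculation was tested on simulated data. The number of arrays limits the precision.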

Additional observations from a re-analysis of the deposited data

How the results depend on the processing

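No paired analysis was possible because every group holds a single array. Of 135 medians and distances between medians recomputed under the alternatives, 129 moved by less than the spot SD of 1 gene and 6 by more, all with spike-in scaling, for which 8 of 10 spike-in probes could be used; the cause was not tested. That SD is a wide limit for a median, and a scaling by 1 factor per array cannot move a distance between medians. With spike-in scaling the medians for 4-OHT against vehicle were -0.37 for replication and -0.16 for mitotic genes. For vitamin E added they were 0.70 and 0.58, and for lutein added 0.38 and 0.26. With this scaling 1 gene was 2-fold higher with each supplement against 4-OHT. Cdc25c was kept in the mitotic medians and distances that this section gives for the supplemented arrays. Smaller moves still passed 1.5 times the value. The mitotic median was 0.031 after 4-OHT with quantile normalization and 0.11 for vitamin E against 4-OHT with normexp, where the distance between the sets was -0.20. The distance for lutein against 4-OHT was -0.074 with quantile normalization. For lutein against vehicle the replication median was -0.0074 with spike-in scaling, 0.036 with normexp and 0.039 with quantile normalization, and the mitotic median 0.11 with spike-in scaling. The replication median for vitamin E against vehicle was 0.23 with spike-in scaling. Of 1607 differences of single genes, 148 moved by more than the spot SD, most of them with spike-in scaling. Counts past 2-fold stayed small: with normexp 0 genes were higher for lutein against vehicle; with dim values as measured 1 was higher for vitamin E against vehicle and 2 for lutein against vehicle. Without a detection filter, which lets in genes at background, 1 was lower with vitamin E against 4-OHT, 1 higher and 1 lower with lutein against 4-OHT, 1 higher and 1 lower with vitamin E against vehicle, and 2 higher and 1 lower with lutein against vehicle. At 1.5-fold, 2 were higher after 4-OHT, 2 with vitamin E and 1 with lutein against 4-OHT, and 2 with lutein against vehicle. Differences at levels under -2, as for Kif23, Kif11, Bub1 and Cdc45, rest on dim spots. Bub1 alone was averaged over 10 spots, so the spot SD, which is that of single spots, is a wide limit for it.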
